A study of Mus musculus with 12 samples.

Results

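Serine, one-carbon units, asparagine and proline are made from glucose carbon, glutamate and aspartate by short chains of enzymes, and 10 genes of these chains were followed in mouse liver: Phgdh, Psat1, Psph, Shmt1, Shmt2, Mthfd2, Asns, Aldh18a1, Pycr1 and Got1. They were chosen by gene symbol for their place in the pathway, 10 of 24296 symbols measured, and the values of their 58 transcripts were summed to a single value per gene and liver. The unit is FPKM, a count of fragments divided by transcript length and library depth, which allows levels of different genes to be set side by side.

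RNA of whole liver was sequenced from 12 male C57/BL6N mice in 4 groups of 3, and their age is not given in the sources used here. The model group received carbon tetrachloride (CCl4), a toxin that injures hepatocytes and scars the liver. The CCl4 was dissolved in a larger volume of olive oil and given by intraperitoneal injection, at 5 mL/kg and 2 times a week over 8 weeks. Mice of the silibinin group, given a flavonolignan of milk thistle as the study's positive control drug, and of the phloridzin group, given the high dose of a dihydrochalcone glucoside, had the same CCl4 course with the drug added from week 5. The control group, labelled WT, had no CCl4, and no vehicle is given for it in the sources used here. Depth, read from the smallest steps between values and given in units of 1e6 fragments, was 105.3 to 109.3 in control livers, 83.4 to 101.4 in model livers, 106.6 to 111.0 in silibinin livers and 98.4 to 104.9 in phloridzin livers.

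Phloridzin liver 1 stood apart from the other livers of its group. The FPKM summed over 8 marker genes of dividing cells was 154 in it, compared with 19.1 and 16.5 in phloridzin livers 2 and 3. Log2 fold changes of the phloridzin group against the model group, and counts of called genes in the lists below, are therefore given with and without this liver. The fit is shared, so leaving it out also moves adjusted p-values between other groups.

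Serine is made from a glycolytic intermediate by Phgdh, Psat1 and Psph in turn, and the serine hydroxymethyltransferases Shmt1 and Shmt2 pass a carbon of serine to folate, from which Mthfd2 and related enzymes supply the units used for nucleotides and methyl groups. Asns makes asparagine from aspartate, Got1 interconverts aspartate and glutamate in the cytosol, and Aldh18a1 and Pycr1 turn glutamate into proline, a residue that collagen holds in large amounts. Several of these genes are known targets of ATF4, a transcription factor that cells make when amino acids run short or the endoplasmic reticulum is under stress.

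The promoters of the 10 genes were searched for 3 short motifs on both strands, as a description. Each of the 10 genes had a promoter in RefSeq (build GRCm38.p6), a window of 300 bases from 250 before to 50 after a transcription start, and Psat1 had 2 of them. The core of the C/EBP-ATF response element (TGATGNAA) was present in 3 of the 10 genes, Asns, Pycr1 and Got1, and in 4.51% of 27025 genes with a window. The E-box (CACGTG) was present in Aldh18a1 and in 8.09% of genes. The core of the antioxidant response element (TGACNNNGC) was present in Phgdh, Psph and Asns and in 14% of genes. No matches overlapped, and the windows of Psat1, Shmt1, Shmt2 and Mthfd2 held none of these motifs. Printed here, on the minus strand and from 5′ to 3′, are Phgdh, the first enzyme of the serine chain, and the genes with a match to TGATGNAA or CACGTG, with matches in capitals: Phgdh at chr3:98339920-98340219, Asns at chr6:7693160-7693459, Aldh18a1 at chr19:40588414-40588713, Pycr1 at chr11:120643699-120643998 and Got1 at chr19:43524556-43524855.
Phgdh: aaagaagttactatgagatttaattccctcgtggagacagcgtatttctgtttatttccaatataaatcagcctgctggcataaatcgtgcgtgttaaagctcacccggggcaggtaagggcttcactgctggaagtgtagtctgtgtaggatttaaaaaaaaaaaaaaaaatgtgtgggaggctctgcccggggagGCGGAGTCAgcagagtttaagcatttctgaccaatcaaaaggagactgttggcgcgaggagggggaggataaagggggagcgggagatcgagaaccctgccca
Asns: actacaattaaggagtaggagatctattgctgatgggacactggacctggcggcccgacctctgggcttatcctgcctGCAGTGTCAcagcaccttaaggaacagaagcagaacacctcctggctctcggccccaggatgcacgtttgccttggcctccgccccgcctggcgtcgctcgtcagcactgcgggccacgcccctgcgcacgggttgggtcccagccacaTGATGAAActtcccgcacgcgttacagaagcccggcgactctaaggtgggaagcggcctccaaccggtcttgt
Aldh18a1: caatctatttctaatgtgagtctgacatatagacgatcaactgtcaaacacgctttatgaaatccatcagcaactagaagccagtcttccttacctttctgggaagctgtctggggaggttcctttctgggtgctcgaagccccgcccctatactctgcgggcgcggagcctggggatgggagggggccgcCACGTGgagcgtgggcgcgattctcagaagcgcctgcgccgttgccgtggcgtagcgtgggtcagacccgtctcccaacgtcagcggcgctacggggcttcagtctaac
Pycr1: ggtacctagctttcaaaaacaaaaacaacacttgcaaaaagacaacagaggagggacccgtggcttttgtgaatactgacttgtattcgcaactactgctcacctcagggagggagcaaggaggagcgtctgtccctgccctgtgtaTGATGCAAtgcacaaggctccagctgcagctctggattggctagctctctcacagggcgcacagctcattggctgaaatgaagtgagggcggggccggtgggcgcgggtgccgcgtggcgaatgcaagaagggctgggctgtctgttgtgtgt
Got1: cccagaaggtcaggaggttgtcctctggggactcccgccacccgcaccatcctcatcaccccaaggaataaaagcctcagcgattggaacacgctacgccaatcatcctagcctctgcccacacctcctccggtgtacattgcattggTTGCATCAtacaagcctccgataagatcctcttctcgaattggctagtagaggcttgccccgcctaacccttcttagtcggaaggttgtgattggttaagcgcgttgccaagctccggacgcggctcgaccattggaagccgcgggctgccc
The TGATGNAA match began 23 bases before the start in Asns, as TGATGAAA, 103 bases before it in Pycr1, as TGATGCAA, and 102 bases before it in Got1, as TTGCATCA on the opposite strand. A match is a description of the letters in a window and not a site of binding. Of the genes higher in the model group below, Asns and Pycr1 had a match to TGATGNAA, and Psat1, Phgdh, Mthfd2 and Aldh18a1 had none. Got1, which had a match, was lower there. Whether the motifs go with the changes was not tested.

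The model group was compared with the control group for the effect of CCl4, and each drug group with the model group for that of the drug. Psat1, Phgdh, Mthfd2, Aldh18a1 and Asns rose in the model group, Got1 and Shmt1 fell, and the 5 genes that rose were each lower in the silibinin group than in the model group. Genes with a mean of at least 0.5 FPKM over the 12 livers were tested by limma on log2(FPKM + 1), 13158 in all, and a gene was called at an adjusted p under 0.05. Of the 10 genes, 8 were tested and Psph and Pycr1 were under the filter. Phgdh passed the filter through its model livers alone, with a mean of 0.434 FPKM over the 9 livers outside the model group, so the genes are counted in a limma fit with no filter, which tests all 10 among 23651. In that fit 6 of the 10 were called higher in the model group, Psat1, Phgdh, Mthfd2, Aldh18a1, Asns and Pycr1, against 18.2% of all genes, and 0 lower by limma, against 1.97%, with 9 in either direction at an unadjusted p under 0.05, against 32.8%. With each drug 4 were called lower than in the model group, Psat1, Phgdh, Mthfd2 and Aldh18a1, against 6.3% of all genes with silibinin and 5.67% with phloridzin. With each drug 0 were called higher by limma, against 1.26% and 1.14%, and 8 differed in either direction at an unadjusted p under 0.05, against 20.8% and 20.3%. Values for each gene below are from the fit with the filter, where Shmt1 and Got1 were called lower in the model group, Asns lower with silibinin and Got1 higher with phloridzin as well. In that fit 31.1% of all tested genes were called higher and 3.8% lower in the model group, 2.62% and 11.4% with silibinin and 2.5% and 10.4% with phloridzin. The comparisons share livers, and the model livers stand in 3 of the 6.

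The log2 fold changes are on the log2(FPKM + 1) scale, which understates those of genes with a low level, so ratios of mean FPKM stand beside them. The median tested gene was itself 0.34 higher in the model group, and -0.15 and -0.11 in the silibinin and phloridzin groups against the model group. Rescaling each liver by median ratios took out 0.32, -0.16 and -0.13 of this shift, and the share of calls that were higher went from 89.1% to 53.1%, from 18.7% to 46.2% and from 19.5% to 42.9%. In whole liver, fewer cells of a type and less RNA per cell cannot be told apart.

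**Figure D1:**
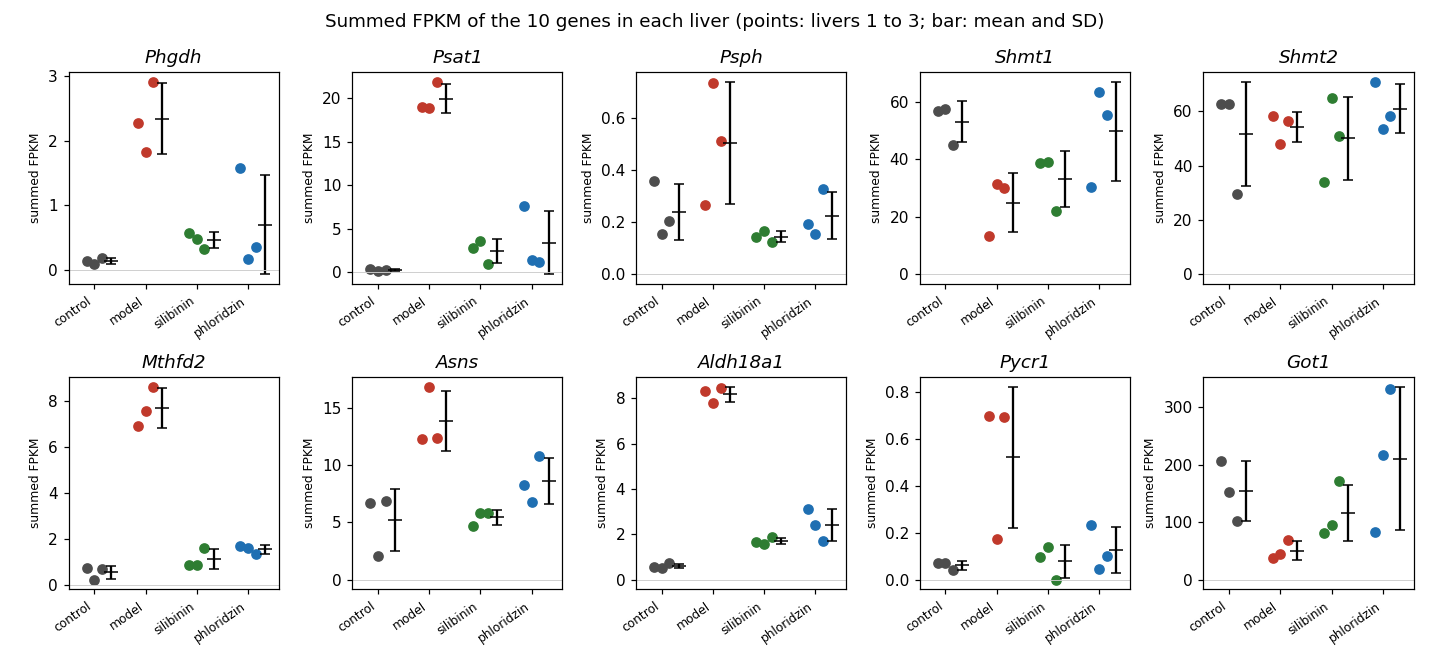
Summed FPKM of the 10 genes (y axis, with a scale of its own in each panel) in each of the 12 livers by group (x axis), where points are livers and bars the group mean with its SD. Model livers of Psat1 lie between 18.9 and 21.9 FPKM and its control livers at or under 0.346 FPKM.

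Phgdh (ENSMUSG00000053398, chr3:98313170-98339990) is the dehydrogenase that commits glycolytic carbon to serine. Its FPKM was 0.141, 0.0974 and 0.188 in control livers 1, 2 and 3 and 2.28, 1.83 and 2.92 in model livers. It was 0.569, 0.486 and 0.331 in silibinin livers and 1.58, 0.171 and 0.349 in phloridzin livers. Every model liver was above every liver of the other groups, phloridzin liver 1 came closest to them, and phloridzin liver 2 was within the control range. The mean of 2.34 ± 0.545 FPKM (SD, 3 livers) in the model group was 16.5-fold that of the control group, a log2 fold change of 1.54 ± 0.25 (SE, limma adjusted p = 0.0014, and 0.0028 with no filter, with the same value). Phgdh changed by -1.18 ± 0.25 with silibinin (adjusted p = 0.011) and by -1.05 ± 0.25 with phloridzin (adjusted p = 0.021). Without phloridzin liver 1 the value was -1.40, adjusted p = 0.00047. The phloridzin call was lost without model liver 1 (-1.06, adjusted p = 0.057), model liver 3 (-0.93, adjusted p = 0.068), phloridzin liver 2 (-0.83, adjusted p = 0.079) or phloridzin liver 3 (-0.93, adjusted p = 0.076). It was also lost in a fit of these groups alone (adjusted p = 0.11), in a range of 0.00047 to 0.11 over the alternatives.

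Psat1 (ENSMUSG00000024640, chr19:15904678-15925059), the aminotransferase of the serine chain, had the highest log2 fold change of these genes in the model group. Its FPKM was 0.346, 0.113 and 0.275 in control livers and 19, 18.9 and 21.9 in model livers. Silibinin livers had 2.74, 3.6 and 0.978 FPKM and phloridzin livers 7.57, 1.43 and 1.17. Every model liver was above every drug liver, every drug liver was above every control liver, and phloridzin liver 1 was the highest of the drug livers. The model mean, 19.9 ± 1.7 FPKM (SD, 3 livers), was 81.4-fold the control mean, and the log2 fold change was 4.07 ± 0.47 (adjusted p = 0.00023). Psat1 changed by -2.69 ± 0.47 with silibinin (adjusted p = 0.0047) and by -2.55 ± 0.47 with phloridzin (adjusted p = 0.0062). Without phloridzin liver 1 the latter was -3.18, adjusted p = 0.00023. A transcript annotated as a retained intron held 54.4% of the summed FPKM and a coding transcript 40.0%. The coding transcript by itself had 0.0363, 0.113 and 0.258 FPKM in control livers, 7.04, 6.82 and 9.09 in model livers, 1.96, 1.63 and 0.298 in silibinin livers and 3.2, 0.452 and 0.268 in phloridzin livers. Its model livers were again above all other livers.

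Psph (ENSMUSG00000029446, chr5:129769243-129787252), the phosphatase that releases serine, was low in all livers. Its FPKM was 0.36, 0.156 and 0.203 in control, 0.267, 0.737 and 0.514 in model, 0.144, 0.167 and 0.124 in silibinin and 0.193, 0.155 and 0.326 in phloridzin livers. Model and control livers overlapped, as did model and phloridzin livers, while every silibinin liver was below every model liver. By an exact two-sided permutation test of 3 livers against 3, whose smallest p is 0.1, the model group differed from control by 0.266 FPKM (p = 0.2), the silibinin group from the model group by -0.361 FPKM (p = 0.1) and the phloridzin group from it by -0.281 FPKM (p = 0.2, by a permutation test as well). Over 8 alternatives these differences were 0.0517 to 0.386, -0.481 to -0.0897 and -0.401 to -0.0364 FPKM, in the same order. Of 4 coding transcripts of Psph in the annotation, 1 was among the transcripts analysed here, so the sum may leave out RNA of this gene.

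Shmt1 (ENSMUSG00000020534, chr11:60788104-60811718) is the cytosolic serine hydroxymethyltransferase. It had 56.6, 57.6 and 44.9 FPKM in control livers and 13.2, 31.5 and 30 in model livers. Silibinin livers had 38.6, 39 and 22 FPKM and phloridzin livers 30.4, 63.4 and 55.5. All model livers were below all control livers, model liver 1 was the lowest, and both drug groups overlapped the model group. Shmt1 changed by -1.14 ± 0.37 in the model group, to 0.47 of the control mean (adjusted p = 0.034). This call was lost without control liver 1 (-1.09, adjusted p = 0.085), control liver 2 (-1.08, adjusted p = 0.089), control liver 3 (-1.26, adjusted p = 0.053) or model liver 1 (-0.76, adjusted p = 0.11). It was lost too with no filter (adjusted p = 0.057) and with the highest transcript in place of the sum (adjusted p = 0.072), in a range of 0.013 to 0.11. Against the model group, Shmt1 was 0.45 ± 0.37 with silibinin (adjusted p = 0.46) and 1.00 ± 0.37 with phloridzin (adjusted p = 0.1), and without phloridzin liver 1 the latter was called (1.31, adjusted p = 0.038, in a range of 0.038 to 0.3). Over the alternatives the log2 fold change was 0.06 to 0.71 with silibinin and 0.61 to 1.31 with phloridzin.

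Shmt2 (ENSMUSG00000025403, chr10:127517123-127522444) is the mitochondrial form. It had 62.7, 62.7 and 29.7 FPKM in control livers, 58.2, 47.8 and 56.3 in model livers, 34.1, 64.9 and 51.1 in silibinin livers and 71, 53.6 and 58.4 in phloridzin livers. All groups overlapped, and control liver 3 and silibinin liver 1 were the lowest. The log2 difference of the model group from control was 0.14 (95% interval -0.53 to 0.80, adjusted p = 0.75), and it turned to -0.30 with rescaling and -0.22 without control liver 3. It was -0.15 with silibinin (interval -0.81 to 0.51, adjusted p = 0.78), turning to 0.06 with rescaling and 0.10 without silibinin liver 1, and 0.17 with phloridzin (interval -0.49 to 0.83, adjusted p = 0.76), 0.05 without phloridzin liver 1. Whether Shmt1 and Shmt2 differ in their response was not tested.

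Mthfd2 (ENSMUSG00000005667, chr6:83305691-83325908), a mitochondrial enzyme that oxidises the carbon carried by folate, had 0.706, 0.221 and 0.69 FPKM in control livers and 6.89, 7.55 and 8.61 in model livers. Silibinin livers had 0.872, 0.866 and 1.61 FPKM and phloridzin livers 1.69, 1.59 and 1.32. The model livers were far above all others, and the drug livers, none of them over 1.69 FPKM, were all above the control livers. The model mean of 7.68 ± 0.866 FPKM (SD, 3 livers) was 14.3-fold that of control, a log2 fold change of 2.51 ± 0.18 (adjusted p = 1.5e-05). Mthfd2 changed by -2.05 ± 0.18 with silibinin (adjusted p = 7.4e-05) and by -1.78 ± 0.18 with phloridzin (adjusted p = 0.00019), or -1.82, adjusted p = 0.0006, without phloridzin liver 1. These 3 calls were kept under each of 19 alternatives.

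Asns (ENSMUSG00000029752, chr6:7675169-7693254), whose promoter holds TGATGAAA, makes asparagine. It had 6.69, 2.04 and 6.92 FPKM in control livers and 12.3, 16.9 and 12.4 in model livers. Silibinin livers had 4.68, 5.84 and 5.8 FPKM and phloridzin livers 8.3, 6.79 and 10.8. Silibinin livers were within the control range, and each phloridzin liver was below every model liver and above every silibinin liver. The model mean of 13.8 ± 2.62 FPKM (SD, 3 livers) was 2.65-fold that of control, a log2 fold change of 1.37 ± 0.33 (adjusted p = 0.0095). With rescaling it was not called (0.97, adjusted p = 0.068, in a range of 0.0084 to 0.068), and without control liver 2, the lowest, it was 0.91, adjusted p = 0.011. Asns changed by -1.20 ± 0.33 with silibinin (adjusted p = 0.035). That call was lost without model liver 1 (-1.27, adjusted p = 0.066), 2 (-1.05, adjusted p = 0.12) or 3 (-1.26, adjusted p = 0.066), and without silibinin liver 1 (-1.11, adjusted p = 0.11), 2 (-1.24, adjusted p = 0.072) or 3 (-1.24, adjusted p = 0.081). It was lost as well with rescaling (adjusted p = 0.098), no filter (0.062) and a pseudocount of 0.1 (0.053), in a range of 0.0036 to 0.12. With phloridzin the value was -0.63 ± 0.33 (adjusted p = 0.24), and -0.62, adjusted p = 0.31, without phloridzin liver 1.

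Aldh18a1 (ENSMUSG00000025007, chr19:40550257-40588463), whose promoter holds an E-box, begins proline synthesis from glutamate. Its FPKM was 0.573, 0.527 and 0.715 in control livers and 8.3, 7.81 and 8.43 in model livers. It was 1.65, 1.59 and 1.87 in silibinin livers and 3.12, 2.41 and 1.71 in phloridzin livers. The model livers were above all others, and all drug livers were between them and the control livers. The model mean of 8.18 ± 0.325 FPKM (SD, 3 livers) was 13.5-fold that of control, a log2 fold change of 2.52 ± 0.15 (adjusted p = 4.6e-06). It changed by -1.76 ± 0.15 with silibinin (adjusted p = 6.6e-05) and by -1.45 ± 0.15 with phloridzin (adjusted p = 0.00022), or -1.59, adjusted p = 0.00013, without phloridzin liver 1. With the highest transcript in place of the sum, both drug calls were lost (adjusted p = 0.075 with silibinin, in a range of 3.9e-05 to 0.075, and 0.14 with phloridzin, in a range of 0.00013 to 0.14). The log2 fold change stayed between -2.32 and -1.57 with silibinin and between -2.02 and -1.28 with phloridzin under all 19 alternatives. Its leading coding transcripts differed between livers, ENSMUST00000176939 with 1.04, 4.63 and 6.18 FPKM and ENSMUST00000025979 with 5.2, 1.22 and 0.835 FPKM in model livers.

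Pycr1 (ENSMUSG00000025140, chr11:120635712-120643769), the reductase of the last step to proline, whose promoter holds TGATGCAA, was low. Its FPKM was 0.0718, 0.0694 and 0.0392 in control, 0.7, 0.175 and 0.693 in model, 0.0965, 0.137 and 0 in silibinin and 0.235, 0.0459 and 0.101 in phloridzin livers. Every model liver was above every control and silibinin liver, and phloridzin liver 1 was above model liver 2. By the exact permutation test the model group differed from control by 0.462 FPKM (p = 0.1, the smallest that 3 livers against 3 can give), the silibinin group from the model group by -0.445 FPKM (p = 0.1) and the phloridzin group from it by -0.395 FPKM (p = 0.2). In a limma fit with no filter, Pycr1 was called in the model group (0.50 ± 0.13, adjusted p = 0.022) and not with silibinin (adjusted p = 0.052) or phloridzin (adjusted p = 0.092). In the same fit Psph was not called in the model group (adjusted p = 0.1).

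Got1 (ENSMUSG00000025190, chr19:43499752-43524605), the cytosolic aspartate aminotransferase, whose promoter holds TTGCATCA, had the highest mean level of the 10 genes. Its FPKM was 207, 153 and 102 in control livers and 38.2, 43.6 and 69.5 in model livers. It was 81.4, 94.6 and 172 in silibinin livers and 82.3, 217 and 332 in phloridzin livers. All model livers were below all livers of the other groups, and phloridzin livers 2 and 3 were above every control liver. Got1 changed by -1.58 ± 0.49 in the model group, to 0.328 of the control mean (adjusted p = 0.029). That call was lost without control liver 1 (-1.34, adjusted p = 0.095), control liver 2 (-1.55, adjusted p = 0.072), model liver 1 (-1.41, adjusted p = 0.089) or model liver 2 (-1.50, adjusted p = 0.079), and with no filter (adjusted p = 0.052), in a range of 0.0076 to 0.095. With silibinin it was 1.15 ± 0.49 (adjusted p = 0.15). It rose by 1.87 ± 0.49 with phloridzin, 4.17-fold in mean FPKM (adjusted p = 0.032), and by 2.44 without phloridzin liver 1 (adjusted p = 0.0043). The phloridzin call was lost without model liver 1 (1.70, adjusted p = 0.099), model liver 2 (1.79, adjusted p = 0.092), phloridzin liver 2 (1.74, adjusted p = 0.1) or phloridzin liver 3 (1.44, adjusted p = 0.1). It was lost as well with no filter (adjusted p = 0.056), in a fit of these groups alone (0.098) and with the highest transcript (0.051), in a range of 0.0043 to 0.1.

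The size of the changes of low genes depended on the scale. With a pseudocount of 0.1, model over control was, in log2, 5.92 for Psat1, 3.72 for Mthfd2, 3.56 for Aldh18a1 and 3.33 for Phgdh, and each was called. Calls were set against 19 alternatives, and where no loss is named the call of a gene was kept under all of them. Aldh1l2 was tested in 17, and it passed the filter through its model livers alone, with a mean of 0.153 FPKM over the other 9.

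**Figure D2:**
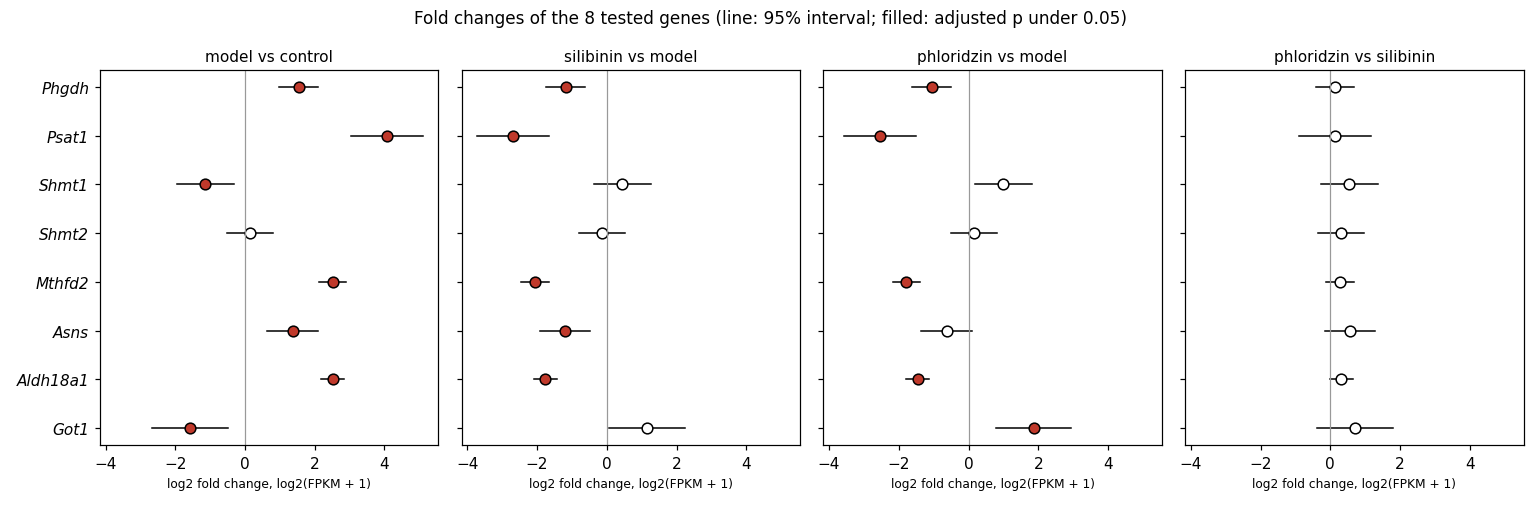
Log2 fold changes (x axis) with 95% intervals of the 8 tested genes (y axis), by comparison, with filled points where the limma adjusted p is under 0.05. Psat1, Mthfd2 and Aldh18a1 lie above 0 in the model group against control, at 4.07, 2.51 and 2.52, and under 0 in both drug groups against the model group.

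The phloridzin and silibinin groups were compared with each other as treatments given, with no matching of doses. In the fit with no filter, limma called 0 of the 10 genes, against 0.0169% of all genes, and 0 of the 10 had an unadjusted p under 0.05, against 4.08%. With the filter, where 0.0228% of all tested genes were called, none of them was called by limma, by voom or without phloridzin liver 1, and in the last of these Shmt1 and Got1 had an unadjusted p under 0.05, as did 6.11% of all genes. The 95% interval of the log2 difference was -0.42 to 0.68 for Phgdh, -0.89 to 1.17 for Psat1, -0.26 to 1.36 for Shmt1 and -0.34 to 0.98 for Shmt2. It was -0.12 to 0.67 for Mthfd2, -0.16 to 1.29 for Asns, -0.01 to 0.65 for Aldh18a1 and -0.37 to 1.80 for Got1. Without phloridzin liver 1, Psat1 went from 0.14 to -0.50 and Phgdh from 0.13 to -0.21, and without silibinin liver 3 Psat1 was -0.22.

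Each drug group was also set against the control group, to see what remained of the change. Aldh18a1 was higher with silibinin than in control livers, by 0.75 ± 0.15 or 2.82-fold (adjusted p = 0.021). In the fit with no filter it was the only 1 of the 10 genes called, against 1.79% of all genes higher and 0.233% lower. Its call was lost without control liver 1 (0.74, adjusted p = 0.073), control liver 2 (0.72, adjusted p = 0.074), silibinin liver 1 (0.77, adjusted p = 0.073) or silibinin liver 2 (0.78, adjusted p = 0.073), and with the highest transcript (adjusted p = 0.67), in a range of 0.0053 to 0.67. Psat1 was 9.98-fold the control mean, with no overlap of livers (1.39 ± 0.47, adjusted p = 0.12), and was called without phloridzin liver 1 (1.39, adjusted p = 0.014), when 8.73% of all tested genes were called higher, compared with 4.59% higher and 0.433% lower with it, and with a pseudocount of 0.1 (2.77, adjusted p = 0.028, in a range of 0.014 to 0.34). Values of Mthfd2 (0.46, adjusted p = 0.17), Phgdh (0.35, 0.46), Asns (0.17, 0.82), Shmt1 (-0.69, 0.31) and Got1 (-0.43, 0.67) did not pass the test. Over the alternatives none of them was called, and Mthfd2 ranged from 0.30 to 1.34 and Phgdh from 0.30 to 1.70. Asns then ranged from -0.28 to 0.41, Shmt1 from -0.92 to -0.43 and Got1 from -0.75 to -0.19.

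With phloridzin, Aldh18a1 was 1.07 ± 0.15 higher than in control livers, 3.99-fold (adjusted p = 0.0058), and Mthfd2 0.73 ± 0.18, 2.84-fold (adjusted p = 0.035). With no filter Aldh18a1 was the only 1 of the 10 genes called, against 2.87% of all genes higher and 0.266% lower. Without phloridzin liver 1, Aldh18a1 was 0.92, adjusted p = 0.011, and Mthfd2, no longer called, 0.69, adjusted p = 0.097, with 3.76% of all tested genes called higher, compared with 7.51% higher and 0.479% lower with this liver. The Aldh18a1 call was lost in a fit of these groups alone (adjusted p = 0.051) and with the highest transcript (0.41), in a range of 0.002 to 0.41. The Mthfd2 call was lost without control liver 1 (0.82, adjusted p = 0.066), control liver 2 (0.57, adjusted p = 0.11), control liver 3 (0.81, adjusted p = 0.061), phloridzin liver 2 (0.72, adjusted p = 0.081) or model liver 2 (0.73, adjusted p = 0.05). It was lost too with rescaling, no filter, the highest transcript or these groups alone, in a range of 0.024 to 0.11. Psat1 was 13.9-fold the control mean, with no overlap (1.52 ± 0.47, adjusted p = 0.071), and 0.89, adjusted p = 0.13, without phloridzin liver 1. It was called without phloridzin liver 3 (1.88, adjusted p = 0.041) and with a pseudocount of 0.1 (2.90, adjusted p = 0.02, in a range of 0.02 to 0.17).

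Other enzymes around the serine chain were set beside Phgdh, Psat1 and Psph. Counts in this and the following lists stand beside the shares of all tested genes called higher and lower with the filter, given above for the model group, silibinin and phloridzin. The shares without phloridzin liver 1 were 35.3% and 4.43%, 3.45% and 13.9%, and 2.8% and 13.2% in the same order. At an unadjusted p under 0.05, in either direction, the shares of all genes were 45.8%, 29.2% and 27.8%, and by voom 33.8%, 13.4% and 11.5%. Of 17 tested genes for glycine cleavage and other serine and glycine steps, 1 was called higher and 2 lower in the model group, with a median log2 fold change of -0.21 beside 0.34 for all genes. Agxt, which makes glycine from glyoxylate, went from 93.7, 97.8 and 88.5 FPKM in control livers to 37.7, 36.7 and 46.8 in model livers, a change of -1.19 (adjusted p = 0.0044). It rose by 1.33 with silibinin and 1.02 with phloridzin, where 2 and 1 of the 17 were called, all higher, with medians of 0.34 and 0.21. These counts became 4 with silibinin and 3 with phloridzin without phloridzin liver 1, all higher, and in the model group 1 was then higher and 3 lower. The phloridzin call of Agxt was lost without model liver 1 or 2 or phloridzin liver 2 or 3 and with these groups alone in the fit (0.83 to 1.02, adjusted p from 0.07 to 0.1), and without phloridzin liver 1 the value was 1.34, adjusted p = 0.00093. Gatm, of creatine synthesis, was 0.79 in the model group, a call lost without control liver 1 or 2 or model liver 1, 2 or 3 and with rescaling (0.42 to 0.81, adjusted p from 0.051 to 0.14). Grhpr, a glyoxylate reductase, was -0.47, lost without control liver 2 or 3 or model liver 1 or 2 and with these groups alone in the fit or the highest transcript (-0.48 to -0.39, adjusted p from 0.05 to 0.095), and it was -0.92, adjusted p = 0.0023, with rescaling. Gldc, of glycine cleavage, was 1.04 with silibinin, a call lost without model liver 1 or 2 or silibinin liver 2 or 3 (0.81 to 1.05, adjusted p from 0.064 to 0.079).

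Of 21 other folate genes over the filter, of which Aldh1l2 passed it through its model livers alone, 3 were called higher and 4 lower in the model group, with a median of 0.18, and 3 were higher and 4 lower without phloridzin liver 1. With all livers, the 3 called higher include Aldh1l2, whose place among the tested genes rests on its model values. Aldh1l2, a mitochondrial enzyme that oxidises formyl folate, went from 0.0757, 0.0122 and 0.169 FPKM in control livers to 3.01, 1.5 and 1.7 in model livers (1.47, adjusted p = 0.0002, and 0.00036 with no filter). In the drug livers it was 0.294, 0.213 and 0.0964 with silibinin and 0.205, 0.135 and 0.18 with phloridzin, changes of -1.33 and -1.36, the latter -1.38, adjusted p = 0.0017, without phloridzin liver 1. All of its drug livers were below all of its model livers. Mthfd1l, the mitochondrial formyl folate synthetase, rose by 1.24. Mtrr, which keeps methionine synthase active, was 0.62, a call lost with rescaling or the highest transcript (0.27 to 0.68, adjusted p from 0.092 to 0.28). Mthfd1, the cytosolic counterpart of Mthfd1l, went from 60.4, 61.1 and 58.4 FPKM in control livers to 35.6, 27.8 and 33.8 in model livers (-0.88, adjusted p = 0.00047). It was 64.2, 70.4 and 61.1 with silibinin and 62, 63.4 and 63.6 with phloridzin, rises of 0.99 and 0.95, the latter 0.96, adjusted p = 0.0015, without phloridzin liver 1. Ftcd, of histidine breakdown, was -1.08 in the model group, lost without control liver 1 or 2 or model liver 1 or 2 and with these groups alone in the fit or the highest transcript (-1.08 to -0.67, adjusted p from 0.067 to 0.087), and Slc46a1, a folate carrier, -0.43, lost without control liver 3 or model liver 1 (-0.40 to -0.36, adjusted p from 0.051 to 0.059), and -0.84, adjusted p = 0.0015, with rescaling.

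Against the model group, 2 of the 21 folate genes were called higher and 3 lower with silibinin, with a median of 0.06, and 4 higher and 2 lower with phloridzin, with a median of 0.14. Aldh1l2 is among those called lower with each drug. The counts without phloridzin liver 1 were 3 higher and 3 lower with silibinin and 4 higher and 2 lower with phloridzin. Mtrr was -0.55 with silibinin, lost without model liver 3 or silibinin liver 3 and with these groups alone in the fit or the highest transcript (-0.56 to -0.47, adjusted p from 0.052 to 0.47), and -0.58 with phloridzin, lost without phloridzin liver 2 and with these groups alone in the fit or the highest transcript (-0.59 to -0.52, adjusted p from 0.056 to 0.46). The phloridzin value of Mtrr was -0.65, adjusted p = 0.011, without phloridzin liver 1. Ftcd was 1.18 with phloridzin, lost without control liver 1, 2 or 3, model liver 1 or 2, silibinin liver 1, 2 or 3 or phloridzin liver 2 or 3 and with no filter, these groups alone in the fit, a replicate block, the highest transcript or voom (0.75 to 1.18, adjusted p from 0.055 to 0.16), and without phloridzin liver 1 it was 1.35, adjusted p = 0.036.

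Of 16 genes for aspartate, asparagine and glutamate beside Got1 and Asns, 1 was called higher and 2 lower in the model group, with a median of -0.25. Glul, which makes glutamine, went from 451, 300 and 383 FPKM in control livers to 31.1, 34.1 and 36.4 in model livers (-3.43, adjusted p = 4.4e-06). Its control and model livers did not overlap. Gpt, the cytosolic alanine aminotransferase, was -0.87 (adjusted p = 0.014), lost without model liver 1 (-0.74, adjusted p = 0.053). With silibinin and with phloridzin 2 of the 16 were called higher and 1 lower, with medians of 0.33 and 0.32. When phloridzin liver 1 was left out, 3 were higher and 1 lower with silibinin, 4 higher and 1 lower with phloridzin, and 1 higher and 3 lower in the model group. Gpt rose by 1.32 with silibinin and by 1.3 with phloridzin, the latter 1.43, adjusted p = 0.0053, without phloridzin liver 1. With the highest transcript in place of the sum, Gpt was -2.47 in the model group, 3.53 with silibinin and 3 with phloridzin. Glul was 0.83 with silibinin, lost without model liver 1 or 2 or silibinin liver 2 (0.70 to 0.84, adjusted p from 0.059 to 0.071), and 0.84 with phloridzin, lost without model liver 1 or 2 or phloridzin liver 2 and with these groups alone in the fit (0.67 to 0.84, adjusted p from 0.059 to 0.081). The phloridzin value of Glul was 0.94, adjusted p = 0.018, without phloridzin liver 1.

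Of 12 tested proline and ornithine genes beside Aldh18a1 and Pycr1, 4 were called higher and 2 lower in the model group, with a median of 0.31, and 5 were higher and 2 lower without phloridzin liver 1. P4ha1, which hydroxylates proline in collagen, was 1.24, a call lost with the highest transcript (1.12, adjusted p = 0.23). Odc1, of polyamine synthesis, rose by 1.05, and by 0.62 with rescaling (adjusted p = 0.032). Oat, which joins ornithine to the proline pathway, went from a mean of 488 ± 58.5 FPKM (SD, 3 livers) in the control group to 15.6 ± 2.64 in the model group (-4.89, adjusted p = 7.7e-05), and the groups were far apart. Aldh4a1, of proline breakdown, was -0.42, lost without control liver 1 or 2, model liver 1 or 2, silibinin liver 1, 2 or 3 or phloridzin liver 2 and with no filter, these groups alone in the fit, a replicate block or the highest transcript (-0.45 to -0.35, adjusted p from 0.05 to 0.13), and -0.86, adjusted p = 0.0034, with rescaling. With silibinin 1 of the 12 was called higher and 4 lower (median -0.49), and with phloridzin 2 higher and 4 lower (median -0.36). Leaving out phloridzin liver 1 gave 2 higher and 4 lower with silibinin and 2 higher and 4 lower with phloridzin. Odc1 changed by -1.34 with silibinin and by -1.18 with phloridzin, the latter -1.33, adjusted p = 0.0033, without phloridzin liver 1. P4ha1 was -1.0 with silibinin, lost with the highest transcript (-0.55, adjusted p = 0.65). Aldh4a1 rose by 0.79 with silibinin and was 0.54 with phloridzin, lost without model liver 1 or 2, silibinin liver 1 or 2 or phloridzin liver 2 or 3 and with these groups alone in the fit, a replicate block or the highest transcript (0.48 to 0.54, adjusted p from 0.05 to 0.12), and 0.65, adjusted p = 0.013, without phloridzin liver 1. Oat was 1.64 with phloridzin, lost without model liver 1, 2 or 3 or phloridzin liver 2 or 3 and with no filter, these groups alone in the fit or the highest transcript (1.29 to 1.73, adjusted p from 0.057 to 0.13), and 2.22, adjusted p = 0.0016, without phloridzin liver 1.

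Of 18 tested genes listed as regulators of amino acid synthesis genes, Nupr1 passed the filter through its model livers alone. The list also holds genes induced by stress, such as Trib3 and Ddit3. In the model group 11 were called higher, against 31.1% of all tested genes, and 0 lower by limma, against 3.8%. In either direction 11 had an unadjusted p under 0.05 and 10 were called by voom, and the median was 1.10. The 11 called higher include Nupr1, whose place among the tested genes rests on its model values. Trib3, a pseudokinase induced by stress, had 5.41, 6.31 and 4.09 FPKM in control livers and 64.4, 42.1 and 74.5 in model livers (3.27, adjusted p = 8.9e-06). It had 5, 4.25 and 3.43 FPKM in silibinin livers and 4.7, 4.89 and 5.36 in phloridzin livers, changes of -3.53 and -3.32, the latter -3.29, adjusted p = 7.8e-05, without phloridzin liver 1. All its drug livers were below all model livers and under the highest control liver. Ddit3, a stress-induced transcription factor, had 0.702, 0.991 and 1.27 FPKM in control and 4.58, 31.1 and 42 in model livers, with model liver 1 well under the others (3.32, adjusted p = 0.0021), and this call was lost with the highest transcript (3.04, adjusted p = 0.068). Ddit3 was -3.21 with silibinin, lost with the highest transcript (-2.90, adjusted p = 0.13), and -3.06 with phloridzin, lost with these groups alone in the fit or the highest transcript (-3.06 to -2.84, adjusted p from 0.072 to 0.14). The phloridzin value of Ddit3 was -3.02, adjusted p = 0.018, without phloridzin liver 1. Myc, a growth factor-induced transcription factor, had 0.94, 0.45 and 0.959 FPKM in control and 8.93, 9.9 and 8.54 in model livers (2.52, adjusted p = 1.8e-05). Atf4, named after its values were seen, had 3.89, 4.66 and 5.84 FPKM in control, 10.3, 15.1 and 15.7 in model, 6.17, 3.63 and 10.6 in silibinin and 4.01, 3.72 and 3.29 in phloridzin livers. Its model livers were above all control and phloridzin livers, and silibinin liver 3 was above model liver 1. Its log2 fold change was 1.33 in the model group, -0.99 with silibinin and -1.63 with phloridzin (adjusted p = 0.006, 0.045 and 0.0054), the last -1.68, adjusted p = 0.011, without phloridzin liver 1. The Atf4 call in the model group was lost with rescaling or the highest transcript (0.94 to 1.39, adjusted p from 0.056 to 0.12). Its silibinin call was kept under 4 of 19 alternatives and lost without control liver 1, 2 or 3, model liver 2 or 3, silibinin liver 1 or 2 or phloridzin liver 1, 2 or 3 and with no filter, a pseudocount of 0.1, rescaling, these groups alone in the fit or the highest transcript (-1.11 to -0.67, adjusted p from 0.051 to 0.32). Of the 18, 9 were called lower with each drug, against 11.4% of all genes with silibinin and 10.4% with phloridzin, with medians of -1.06 and -1.13, and 0 higher by limma, with 12 and 10 in either direction at an unadjusted p under 0.05 and 9 and 9 by voom. With each drug the 9 called lower by limma include Nupr1. The counts were 12 higher in the model group, 8 lower with silibinin and 9 lower with phloridzin when phloridzin liver 1 was left out.

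**Figure D3:**
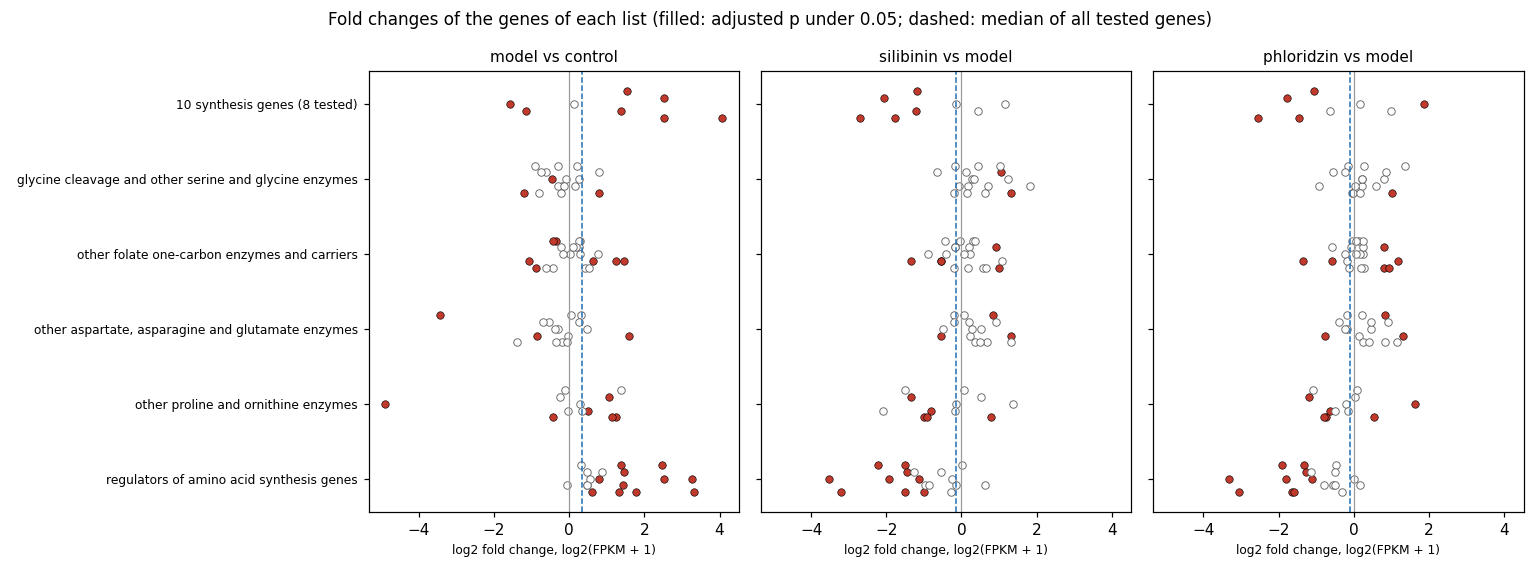
Log2 fold changes (x axis) of the tested genes of each pathway list (y axis) in 3 comparisons, with filled points where the limma adjusted p is under 0.05 and a dashed line at the median of all tested genes. The list of regulators, which also holds genes induced by stress, has medians of 1.10, -1.06 and -1.13, beside 0.34, -0.15 and -0.11 for all tested genes.

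Marker genes of liver cell types also moved with the groups, and their part in the results for Psat1, Mthfd2 and the other members was not tested. Of 8 pericentral hepatocyte markers, 6 were called lower in the model group. Their FPKM summed to 5130, 2590 and 4610 in control, 829, 857 and 937 in model, 1940, 1150 and 1560 in silibinin and 1240, 881 and 955 in phloridzin livers, with Cyp2e1 the most abundant, and the list holds Glul and Oat. All livers given CCl4 were below all control livers. Relative to the model group, 2 of the 8 were called higher with silibinin, Glul and Lgr5, and 3 with phloridzin, Oat, Glul and Lgr5, and leaving out phloridzin liver 1 gave 3 and 4. Lgr5 was 0.78 with silibinin and 0.64 with phloridzin, the latter lost without model liver 2 or 3 or phloridzin liver 2 or 3 and with these groups alone in the fit (0.55 to 0.65, adjusted p from 0.061 to 0.087), and 0.73, adjusted p = 0.017, without phloridzin liver 1. Of 12 stellate cell and myofibroblast markers, 10 were called higher in the model group, against 31.1% of all tested genes. They summed to 94.7, 84 and 97.1 in control, 269, 266 and 310 in model, 269, 315 and 149 in silibinin and 365, 226 and 194 in phloridzin livers, with Dcn the most abundant. Against the model group, limma called 0 of these 12 with silibinin, 2 having an unadjusted p under 0.05 and 0 by voom, and 1, Lrat, lower with phloridzin (-0.83), a call lost without model liver 3 or phloridzin liver 2 and with these groups alone in the fit (-0.83 to -0.71, adjusted p from 0.051 to 0.063). With phloridzin liver 1 left out, 9 of the 12 were higher in the model group, and 2 were lower with silibinin and 1 with phloridzin, where Lrat was -0.94, adjusted p = 0.011. Of 10 macrophage markers, 6 were called higher in the model group, with sums of 128, 228 and 182 in control, 386, 611 and 526 in model, 447, 555 and 425 in silibinin and 695, 671 and 360 in phloridzin livers, and Lyz2 the most abundant. Cd14 was called lower with each drug than in the model group, the only 1 of the 10 with or without phloridzin liver 1. It had 1.35, 1.11 and 1.89 FPKM in control, 19.6, 33.6 and 29.9 in model, 3.28, 3.91 and 2.66 in silibinin and 2.64, 3.66 and 2.29 in phloridzin livers, and it changed by 3.53 in the model group, -2.72 with silibinin (adjusted p = 5.4e-05) and -2.87 with phloridzin (adjusted p = 3.8e-05), the last -2.84, adjusted p = 0.00019, without phloridzin liver 1. Of 8 markers of dividing cells, 4 were called higher, with sums of 2.59, 3.1 and 2.7 in control, 27.9, 23.7 and 32.2 in model, 45.5, 40.9 and 21.6 in silibinin and 154, 19.1 and 16.5 in phloridzin livers, and Rrm2 the most abundant. Of these 8, 3 were called by voom, 7 had an unadjusted p under 0.05, and 7 were called higher without phloridzin liver 1. Pericentral and macrophage markers then had 6 lower and 6 higher, as with it. Limma called 0 of the 8 dividing-cell markers with either drug against the model group, with or without phloridzin liver 1, and 0 had an unadjusted p under 0.05 or were called by voom.

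Of 10 general hepatocyte markers, 2 were called lower in the model group, Cyp2e1 and F9, and 2 without phloridzin liver 1. The call of Cyp2e1 (-2.35) was lost with the highest transcript (-1.07, adjusted p = 0.6) and that of F9 (-0.56) without control liver 1 or model liver 1 or 2 (-0.56 to -0.50, adjusted p from 0.053 to 0.07). The summed FPKM of the list, with Alb the most abundant, was between 20100 and 37200 in the 12 livers. Of 8 periportal markers, 1 was higher and 1 lower, and of 3 tested cholangiocyte markers 2 were higher. Limma called 0 of 8 endothelial, 0 of 5 lymphocyte and 0 of 5 erythroid markers in the model group, with 1, 2 and 1 at an unadjusted p under 0.05 and 0, 1 and 0 by voom. In the fit that left out phloridzin liver 1, 1 periportal marker was higher and 2 were lower, 2 cholangiocyte markers were higher, 1 erythroid marker was lower, and limma called 0 endothelial and 0 lymphocyte markers. Hal, a periportal marker, was called higher with silibinin than in the model group (1.51), lost without model liver 1 or 2 or silibinin liver 1, 2 or 3 and with no filter or the highest transcript (1.22 to 1.64, adjusted p from 0.052 to 0.1), as was Alas2, an erythroid marker (0.54), lost without model liver 1 or 2 or silibinin liver 2 or 3 and with the highest transcript (0.47 to 0.55, adjusted p from 0.056 to 0.21). The 5 tested erythroid markers had medians of -0.84 with silibinin and -0.71 with phloridzin against the model group. The FPKM of the erythroid list summed to 782, 820 and 577 in model and 534, 546 and 265 in silibinin livers. In phloridzin livers the sums were 309, 623 and 896. With phloridzin, limma called 0 periportal, 0 erythroid and 0 general hepatocyte markers against the model group, with 3, 2 and 1 at an unadjusted p under 0.05 and 0 of each by voom, and with silibinin it called 0 general hepatocyte markers, with 2 at an unadjusted p under 0.05 and 0 by voom. When phloridzin liver 1 was left out, 3 periportal markers were higher with silibinin and 3 with phloridzin, 1 erythroid marker with silibinin and 1 with phloridzin, and among general hepatocyte markers 1 was higher and 1 lower with silibinin and 1 higher with phloridzin. Of the pancreatic acinar markers 1 was tested and 0 called by limma with or without phloridzin liver 1, at an unadjusted p or by voom, and Cela3b, Cpa1, Cpb1, Ctrb1 and Cel were below 0.1 FPKM in every liver. Cela1, the acinar marker tested, had between 4.75 and 11.3 FPKM, and Cela2a had at most 0.658 FPKM. Of the kidney tubule markers 0 were tested, and Umod, Slc34a1 and Aqp2 were below 0.1 FPKM in every liver, while Lrp2 had at most 0.879 FPKM.

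**Figure D4:**
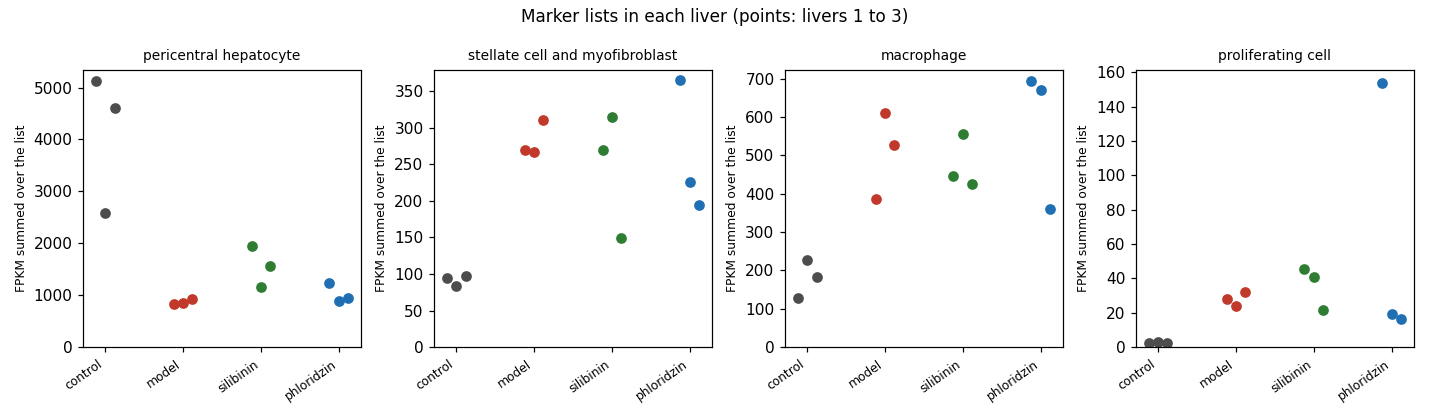
FPKM summed over each marker list (y axis) in each liver by group (x axis). Pericentral sums are between 829 and 937 in model livers and between 2590 and 5130 in control livers, and phloridzin liver 1 has the highest sum of dividing-cell markers, 154.

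Outside the 10 genes, those most like Psat1 over the 12 livers by Pearson's r of log2(FPKM + 1) were Clic4 (0.987), Mtmr11 (0.986), Ppfibp1 (0.982), Pde5a (0.982) and Hspbap1 (0.981), a description of livers that share 4 groups. Mtmr11 had 0.61, 0.285 and 0.476 FPKM in control, 3.35, 3.18 and 4.16 in model, 1.23, 1.47 and 1.06 in silibinin and 2.38, 1.18 and 0.919 in phloridzin livers. As with Psat1, phloridzin liver 1 was the highest of its drug livers. Mtmr11 was picked for its likeness to Psat1 over these livers, so this shared order adds nothing to that likeness.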

How the data were processed

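As deposited, the values are FPKM per transcript, which the authors made by aligning reads to the mm10 genome with HISAT2 2.1.0 and assembling and quantifying transcripts with StringTie 1.3.3b, after base calling with bcl2fastq and quality control with FastQC 0.11.5. The authors tested genes with DESeq 1.28.0. Libraries were made with the NEB Next Ultra RNA kit. The test planned for counts was not used, since the values are FPKM.

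Of 169430 transcripts, 82136 had a gene symbol, and their FPKM was summed per symbol. The symbols held 57.9% to 70.9% of the FPKM of each liver, and 98.1% of the transcripts found in the annotation had the same position there. Depth is the number of fragments at which low values become whole counts within 0.1, which 98.6% to 99.1% of them did.

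Genes with a mean of at least 0.5 FPKM were fitted with limma 3.58.1 (R 4.3.3, empirical Bayes with a trend, two-sided) on log2(FPKM + 1), in a single fit of 12 livers with 4 group means and 6 comparisons, and p-values were adjusted by Benjamini-Hochberg over 13158 genes. A gene was called at an adjusted p under 0.05. Members under the filter had an exact permutation test over livers. Alternatives were no filter, a pseudocount of 0.1, median-ratio scaling, a fit of the compared groups alone, a replicate block, leaving out each liver, the highest transcript of each gene, voom on recovered fragments and, for counts of genes, a log2 fold change cutoff of 1. Other tools were Python 3.11.15 with numpy 2.4.6, pandas 2.3.3 and matplotlib 3.10.9, and the R package data.table, version 1.17.8.

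The genes named were the 10 members and, from each of 5 pathway lists, up to 3 called genes per direction with the largest change in the model group and up to 2 per direction in each drug group against it. Atf4, Lrat, Cyp2e1, F9, Cd14, Lgr5, Hal and Alas2 were named beside this rule, after their values were seen. The gene with the largest change among the members, Psat1, had the 5 genes most like it named. Some genes of the lists that the naming rule or the marker values would name are not reported here, and counts and medians of a list still include them. The pathway lists were other serine and glycine enzymes, other folate enzymes and carriers, other aspartate, asparagine and glutamate enzymes, other proline and ornithine enzymes, and regulators of amino acid synthesis genes. Marker lists were for hepatocytes (general, periportal, pericentral), stellate cells and myofibroblasts, macrophages, endothelial cells, cholangiocytes, lymphocytes, erythroid cells, dividing cells, pancreatic acini and kidney tubules. The members and lists were chosen with earlier results of these data known.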

Additional observations from a re-analysis of the deposited data

Results flagged for a closer look

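Some transcripts without a gene symbol, which enter no comparison above, lie inside the span of a member gene and were higher in every model liver than in every control liver. Of 11 transcripts without a symbol or of another gene that overlap a member and have a mean of at least 0.1 FPKM, 3 did so (27.3%). The share of all transcripts with such a mean that did so was close to this, 27.2% of 91151. NONMMUT140453.1, on the strand opposite to Shmt1, had 0.323, 0.209 and 0.146 FPKM in control livers and 0.75, 0.509 and 0.494 in model livers, with a model mean of 0.584. It had 0.329, 0.322 and 0.191 FPKM in silibinin livers and 0.368, 0.351 and 0.241 in phloridzin livers. NONMMUT150510.1, inside Mthfd2 on the same strand, had 0.622, 0.179 and 0.442 FPKM in control livers and 0.637, 0.668 and 1.02 in model livers, with a model mean of 0.773. NONMMUT057597.2, also inside Mthfd2, had 0.143, 0.0132 and 0 FPKM in control livers and 0.333, 0.398 and 0.196 in model livers, with a model mean of 0.309. The strand of the libraries is not stated in the sources used here, so reads of NONMMUT140453.1 and of Shmt1 cannot be told apart. NONMMUT150510.1 and NONMMUT057597.2 lie on the strand of Mthfd2, so strand could not tell their reads from those of Mthfd2.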

How the results depend on the processing

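With the highest transcript of each gene in place of the sum, the genes called were 2657 for model against control, 1082 for silibinin and 922 for phloridzin against model, 5 for phloridzin against silibinin, and 179 for silibinin and 313 for phloridzin against control. Members called were then 3 for phloridzin against model, 0 for silibinin against control and 0 for phloridzin against control, and Shmt2 in silibinin against control was 0.2. With a log2 fold change cutoff of 1, the genes called in the model group were 1382, those against the model group 526 with silibinin and 463 with phloridzin, and those against control 261 and 398, with 0 members for silibinin against control and 1 for phloridzin against control, where limma without the cutoff called 1 and 2. With only the compared groups in the fit, the genes called were 604 for phloridzin against model, 0 for phloridzin against silibinin and 207 for phloridzin against control, and the members 3 for phloridzin against model and 0 for phloridzin against control. Fewer livers then estimate the spread. With a pseudocount of 0.1, silibinin against control had 1092 genes and 2 members called. Phloridzin against control had 1 member called with no filter and 1 with median-ratio scaling.

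With median-ratio scaling, Shmt2 turned to -0.3 in model against control and 0.06 in silibinin against model, and Asns to -0.02 in silibinin against control. By voom, Phgdh in phloridzin against silibinin was -0.13 and Shmt2 in silibinin against control 0.06. None of these values was called under any setting, and the cause was not tested.

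Leaving out each liver in turn, the genes called ranged from 1110 to 2269 for silibinin against model, 873 to 2090 for phloridzin against model, 1 to 5 for phloridzin against silibinin, 136 to 1235 for silibinin against control and 353 to 1280 for phloridzin against control. Members called ranged from 3 to 6 for phloridzin against model, 0 to 2 for silibinin against control and 1 to 3 for phloridzin against control. Log2 fold changes of Shmt2 ranged from -0.22 to 0.31 in model against control, -0.36 to 0.1 in silibinin against model, -0.37 to 0.23 in silibinin against control and -0.05 to 0.48 in phloridzin against control. In phloridzin against silibinin, Phgdh ranged from -0.21 to 0.35 and Psat1 from -0.5 to 0.5. Asns ranged from -0.28 to 0.41 in silibinin against control, and in phloridzin against control Shmt1 ranged from -0.35 to 0.17 and Got1 from -0.14 to 0.85. For the changed calls the cause was not tested.

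With the replicate number as a replicate block, members called were 7 for model against control, 5 for silibinin and 5 for phloridzin against model, 0 for phloridzin against silibinin, and 1 for silibinin and 2 for phloridzin against control, and all genes called were 4351, 1664, 1455, 3, 506 and 819 in the same order. Without the block all genes called were 4594, 1849, 1691, 3, 661 and 1051. Livers with the same replicate number had correlations of -0.091 to 0.1 over 18 pairs once group means were removed. Of these, 0 were above 0.1, so these numbers were not treated as pairs. The replicate numbers are those of the sample titles. The numbers in the column names of the deposited values would match the livers in another way, and pairing by them was not tested.

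Depth was at least 83.4 (in units of 1e6 fragments) in each liver, and values near 0.1 FPKM, as for Pycr1 and Psph, still rest on few fragments. Control livers of Phgdh, at 0.0974 to 0.188 FPKM, and control liver 2 of Psat1, at 0.113 FPKM, are in this range. Ratios of these genes to the control mean, such as 16.5-fold and 81.4-fold, share this limit. With 3 livers a group, differences within the 95% intervals given could not be resolved. FPKM is relative to the total of each liver, so a shift shared by most genes depends on the scaling. Except with no filter, members called are counted among those over the filter, which Phgdh passed through its model livers alone.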
